A study of Mus musculus with 8 samples.

Results

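The carbonic anhydrase family was followed through RNA-seq libraries of primary motor cortex (M1) from mice treated with *Fezf2 shRNA* or *non-silencing shRNA*. The 7 genes described were *Car2*, *Car4*, *Car7*, *Car8*, *Car10*, *Car11* and *Car12*, of 38031 genes with counts. They were chosen by name, and *Car10* was selected on its fold change between these same treatments, *Car2* as a marker of oligodendrocytes. The differences of all 7 between treatments are therefore given as a description and carry no p-value. Each gene was represented by the transcript with the lowest Ensembl number in the GENCODE M21 annotation of GRCm38, and its count covers the whole genomic interval of that transcript, introns included.

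All 8 animals were male Swiss Webster mice injected in M1 at postnatal day 21 to 25 with lentivirus and sampled at day 49 to 53, 4 with each virus. Both viruses carried an mCherry reporter and an shRNA behind a rat *Synapsin I* promoter, which is active in neurons, so the controls also carried a virus, a reporter and an shRNA. Tissue was dissected by mCherry fluorescence and holds all cell types of the region, transduced or not. Total RNA was sequenced, and the libraries held between 54684016 and 58003814 counts on genes. *Fezf2* itself, the target, had 723 ± 35.4 normalized counts in the controls and 591 ± 22.1 after *Fezf2 shRNA* (SD, n = 4 each), with no overlap between the treatments. Its log2 fold change was -0.29 (SE 0.076), and its adjusted p of 0.076 in edgeR's quasi-likelihood test was above the threshold used here. DESeq2 gave -0.28 with an adjusted p of 0.026 and called it decreased. Log2 fold changes varied with genomic span in these libraries, as given below. With an offset for span fitted in each library, that of *Fezf2* (3.86 kb) was -0.18 (SE 0.078, adjusted p = 0.433 in edgeR).

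Carbonic anhydrases catalyse the interconversion of carbon dioxide and bicarbonate at a zinc ion held by histidine side chains, and in the brain they buffer pH around active neurons and supply bicarbonate for anion currents. The isoforms differ in where they act: in the cytosol, in mitochondria, on the outer face of the membrane or after secretion. Related proteins (*Car8*, *Car10* and *Car11*) keep the fold but lack some or all of the histidines of the zinc site, do not act as enzymes, and work as binding proteins.

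The difference between enzymes and related proteins can be read from the transcripts of the genes measured. The sequences below are the coding stretches that run from the first to the last of the 3 zinc-binding histidines of *Car2* (codons 94, 96 and 119) and the stretches aligned to them in *Car4*, *Car7*, *Car12*, *Car10* and *Car11*, taken from the GENCODE M21 transcripts. Capitals mark the codons at the 3 aligned positions, and CAC and CAT encode histidine.
Car2: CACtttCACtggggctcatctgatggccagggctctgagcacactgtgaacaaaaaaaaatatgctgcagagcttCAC
Car4: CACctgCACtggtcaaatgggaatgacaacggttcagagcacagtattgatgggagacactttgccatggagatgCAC
Car7: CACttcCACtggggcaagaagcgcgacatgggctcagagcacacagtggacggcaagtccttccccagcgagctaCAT
Car12: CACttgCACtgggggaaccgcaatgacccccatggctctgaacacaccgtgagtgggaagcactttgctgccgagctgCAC
Car10: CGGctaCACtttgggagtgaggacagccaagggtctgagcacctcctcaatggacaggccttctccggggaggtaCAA
Car11: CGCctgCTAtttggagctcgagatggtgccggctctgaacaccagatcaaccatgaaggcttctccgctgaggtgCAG
In *Car2*, *Car4*, *Car7* and *Car12* all 3 positions held a histidine codon. *Car10* had 1 and *Car11* had 0. Each stretch lies in 2 coding exons, with the last 2 codons in the second of them. In *Car10* these are exons 5 and 6, on the plus strand of GRCm38 at chr11:93490606-93490677 and chr11:93578666-93578671. In *Car2* they are exons 3 and 4, at chr3:14895069-14895140 and chr3:14895535-14895540 on the plus strand.

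The members spanned very different levels in M1. Counts were compared between genes per kb of genomic interval, as normalized counts (raw counts scaled to a common effective library size). On this scale *Car11* stood highest in the controls, at 681 ± 53.1 per kb (SD, n = 4), followed by *Car2* at 256 ± 46.7. *Car7* (74.0 ± 14.8), *Car4* (43.7 ± 13.5) and *Car10* (26.2 ± 2.17) came next. *Car12* (9.57 ± 4.89) and *Car8* (5.35 ± 0.372) were lowest. The control ranges of *Car7* and *Car4* overlapped, as did those of *Car12* and *Car8*, so the order within these pairs is not separated by the spread between libraries. The median of the 9959 genes tested was 56.0 per kb. The interval of *Car11* is 39.8% exonic, whereas those of *Car8* and *Car10* are 4.03% and 1.25% exonic, and a count per kb of interval does not separate exonic from intronic reads.

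**Figure D1:**
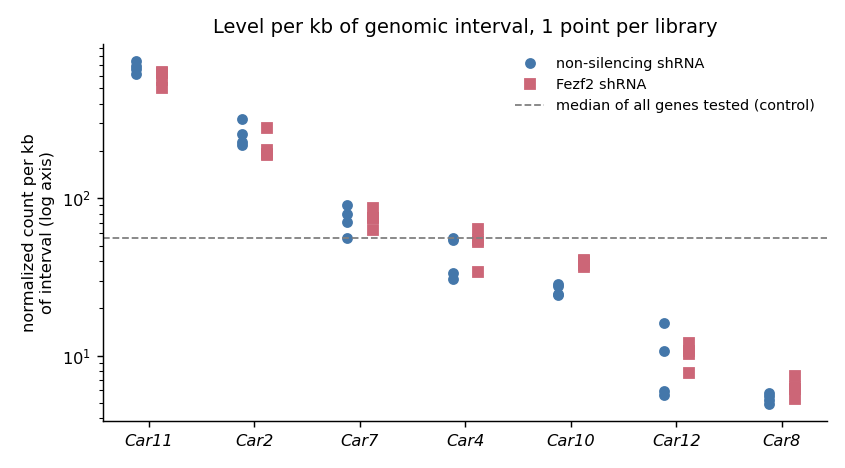
Normalized count per kb of genomic interval (log axis) for the 7 genes, 1 point per library, with non-silencing shRNA libraries as circles, Fezf2 shRNA libraries as squares and the control median of all genes tested as a dashed line. *Car11* and *Car2* lie above the line in all libraries, and *Car10*, *Car12* and *Car8* below it.

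Genes entered the test when they had more than 8 CPM (counts scaled to the library total) in at least 4 libraries, and a gene was called when its adjusted p in edgeR was at most 0.05 and its log2 fold change at least 0.2 in size. Of the 7 members 6 passed the filter and 1, *Car10*, was called, beside 2.19% of all genes tested (218 of 9959). Of these, 205 had increased, 2.06% of the genes tested, and 13 had decreased. Since the members were chosen with this comparison in view, nothing follows from that share. The median log2 fold change of the 6 members was 0.053, against -0.027 over all genes tested. *Car10* was also the 1 member whose treatments did not overlap, beside 11.8% of all genes tested. That share differed with genomic span. Of the 407 genes tested that span over 300 kb, as *Car10* does, 204 were higher in every *Fezf2 shRNA* library than in every control.

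**Figure D2:**
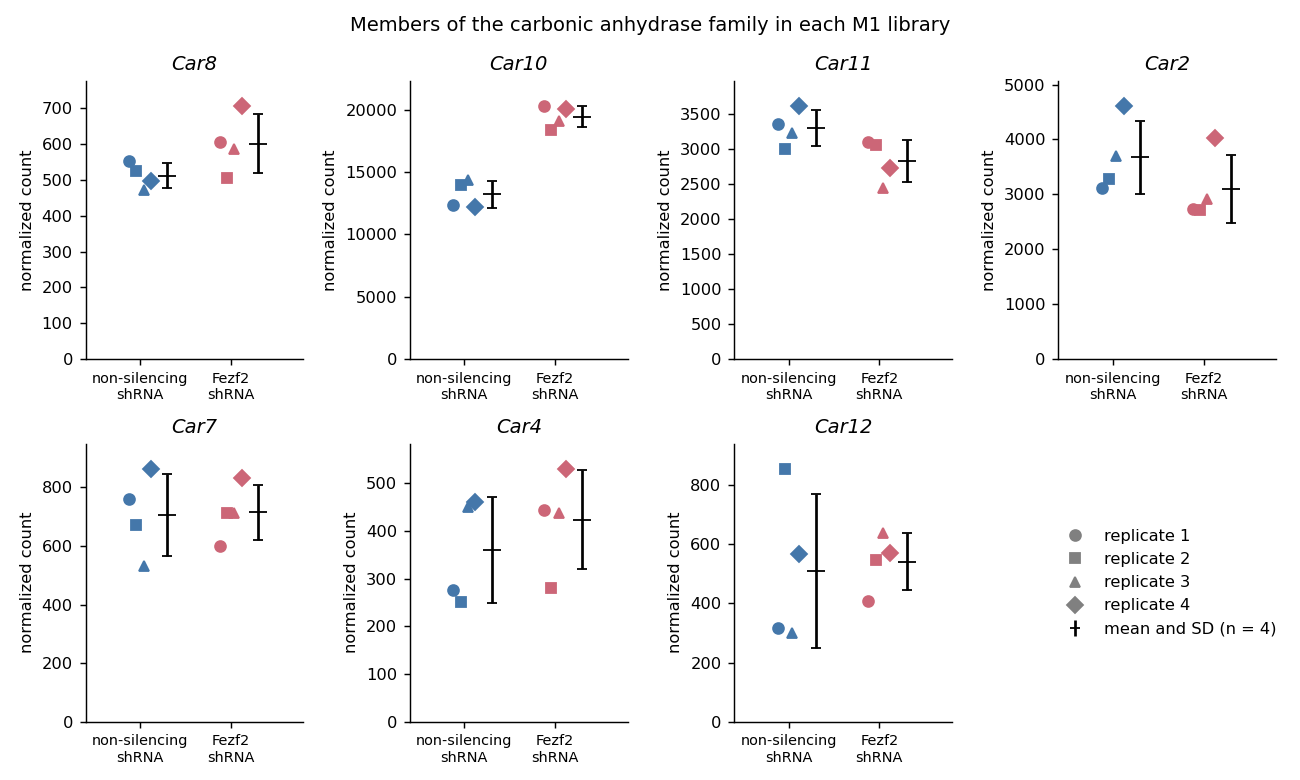
Normalized counts of each member in the 8 libraries (linear axes from 0, each gene on its own scale), with the marker shape giving the replicate number and black bars the mean and SD of 4 libraries. In *Car10* every Fezf2 shRNA library (18402 to 20270) lies above every control (12160 to 14334), and in the other 6 genes the treatments overlap.

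The related proteins come first. *Car10*, a secreted ligand of neurexins, lies at chr11:93098404-93601745 on the plus strand and spans 503 kb. Its normalized counts were 12383, 13946, 14334 and 12160 in control replicates 1 to 4 and 20270, 18402, 19070 and 20062 in the *Fezf2 shRNA* replicates. The lowest *Fezf2 shRNA* library thus lay well above the highest control. The means were 13206 ± 1094 and 19451 ± 873 (SD, n = 4), a 1.47-fold difference and a log2 fold change of 0.56 (SE 0.0706). *Car10* also varied little within treatments, with an SD of 0.0963 on the log2 scale against a median of 0.121 over all genes tested. The call was absent when control replicate 1 was left out, with a log2 fold change of 0.53, and no gene of 9871 was called in that setting, although 1563 had an unadjusted p under 0.05.

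*Car11*, the other secreted neurexin ligand, is a compact gene of 4.84 kb at chr7:45699843-45704682 on the plus strand. It had 3360, 2993, 3224 and 3607 normalized counts in the controls and 3091, 3053, 2446 and 2724 after *Fezf2 shRNA*. All 4 *Fezf2 shRNA* libraries lay below the control median, but 2 of them exceeded the lowest control. The log2 fold change was -0.22 (SE 0.0873), opposite in sign to that of *Car10*.

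*Car8*, an intracellular protein that binds the inositol trisphosphate receptor Itpr1 and is best known from cerebellar Purkinje cells, spans 95.7 kb at chr4:8143362-8239041 on the minus strand. Its normalized counts were 554, 526, 472 and 496 in the controls and 605, 506, 586 and 706 after *Fezf2 shRNA*. Replicate 2 of *Fezf2 shRNA* fell inside the control range and the other 3 libraries lay above it. The log2 fold change was 0.23 (SE 0.111), and 0.14 without *Fezf2 shRNA* replicate 4, and the gene was not called.

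Among the cytosolic enzymes, *Car2*, the fast isoform found in oligodendrocytes and red cells, is at chr3:14886428-14900770 on the plus strand and spans 14.3 kb. It had 3110, 3271, 3701 and 4604 normalized counts in the controls and 2732, 2721, 2907 and 4021 after *Fezf2 shRNA*. Replicates 1 to 3 of *Fezf2 shRNA* lay below every control, and replicate 4 lay above 3 of the 4 controls. The log2 fold change was -0.25 (SE 0.149), and it moved to -0.40 without *Fezf2 shRNA* replicate 4 and to -0.12 without control replicate 4, the highest library.

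Markers of oligodendrocytes, the myelinating cells, are given beside *Car2*. The summed normalized counts of 10 markers were 65347, 88991, 77992 and 118461 in the controls and 51143, 48384, 79259 and 79434 after *Fezf2 shRNA*. Control replicate 4 was highest in both *Car2* and the marker sum, and *Fezf2 shRNA* replicates 1 and 2 were lowest in both. Other libraries did not keep this order. *Fezf2 shRNA* replicates 3 and 4 had close marker sums (79259 and 79434) but *Car2* counts of 2907 and 4021. Replicate 3 of *Fezf2 shRNA* also had less *Car2* than control replicate 1 (3110), whose marker sum was lower (65347). All 9 markers tested had a negative log2 fold change, with a median of -0.52, but 0 were called in edgeR, with 6 at an unadjusted p under 0.05, as were 19.7% of all genes tested (1961 of 9959). DESeq2 called 2 of the 9 markers decreased. Over all genes tested it called 7.55% in either direction and 0.944% decreased. *Mbp*, a myelin protein and the marker with the most counts, had -0.31 (SE 0.233). In tissue RNA fewer cells of a type and less RNA per cell cannot be told apart, and the part of these cells in the *Car2* values was not tested. Markers of red cells, which also hold *Car2*, had a median log2 fold change of 0.36 over 5 genes, with 0 called in edgeR or in DESeq2 and 1 at an unadjusted p under 0.05. *Ttr*, the main transcript of the choroid plexus, another site of *Car2*, had 61.8 normalized counts in the controls and 73.7 after *Fezf2 shRNA*, whereas the other 6 of 7 choroid plexus and meninges markers had lower means after *Fezf2 shRNA*; 0 of the 7 passed the filter.

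**Figure D3:**
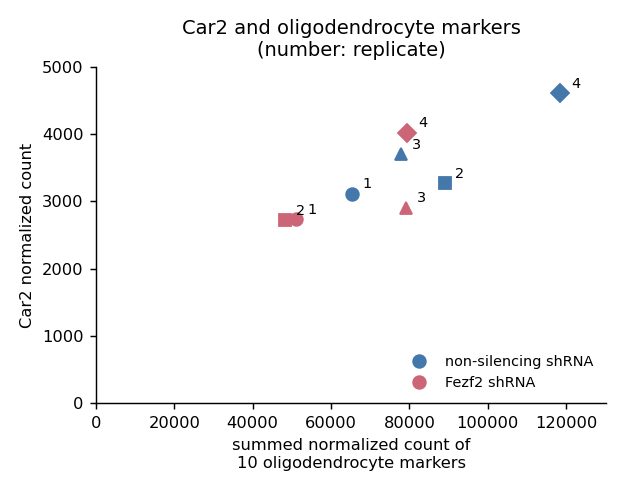
*Car2* normalized count against the summed normalized count of 10 oligodendrocyte markers, 1 point per library, with colour for treatment and numbers for replicates; both axes start at 0. Control replicate 4 (118461 and 4604) lies at the upper right and *Fezf2 shRNA* replicates 1 and 2 at the lower left. *Fezf2 shRNA* replicates 3 (79259 and 2907) and 4 (79434 and 4021) have close marker sums but differ in *Car2*.

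*Car7* is the cytosolic enzyme of neurons, where it supplies the bicarbonate that flows through GABA-A receptors, and it lies at chr8:104540807-104550343 on the plus strand (9.54 kb). Its normalized counts were 760, 671, 530 and 863 in the controls and 601, 712, 714 and 832 after *Fezf2 shRNA*. The *Fezf2 shRNA* libraries all lay within the control range. The log2 fold change was 0.017 (SE 0.147), and it went from -0.090 to 0.13 as single libraries were left out.

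*Car4* and *Car12* act outside the cell, *Car4* on a lipid anchor at the membrane, mainly of capillary endothelium in the brain, and *Car12* through a membrane-spanning segment. *Car4* (chr11:84957788-84966044, plus strand, 8.26 kb) had 276, 252, 451 and 462 normalized counts in the controls and 445, 281, 438 and 530 after *Fezf2 shRNA*. Both treatments held low and high libraries and overlapped widely. It passed 8 CPM in 3 libraries, so it was not tested. With no filter on low counts its log2 fold change was 0.24 (SE 0.213). Of 7 endothelial markers 1 passed the filter, *Slco1c1*, at 0.093 (SE 0.098). The other 6 all had lower means after *Fezf2 shRNA*, between 0.590 and 0.905 of the control mean, and were not tested. The summed marker counts were 3145 to 4211 in the controls and 3168 to 3450 after *Fezf2 shRNA*, with *Slco1c1* the largest part, and no marker was at 0 in any library. Their part in the *Car4* values was not tested.

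*Car12* (chr9:66713686-66766845, plus strand, 53.2 kb) had 316, 854, 300 and 565 normalized counts in the controls and 409, 545, 639 and 569 after *Fezf2 shRNA*. Control replicate 2 alone was the highest and control replicate 3 the lowest of the 8. The log2 fold change was 0.088 (SE 0.299), and it moved to 0.46 without control replicate 2 and to -0.087 without control replicate 3. Its SD within treatments, 0.544 on the log2 scale, was larger than that of 99.1% of the genes tested, so a difference of moderate size was not detectable in *Car12* with these libraries.

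In these libraries the log2 fold change varied with the genomic span of a gene, and the members ranged from 4.84 kb to 503 kb. The 2153 genes tested under 10 kb had a median of -0.12, the 2983 genes of 10 to 30 kb -0.075, the 3119 genes of 30 to 100 kb 0.013, the 1297 genes of 100 to 300 kb 0.15 and the 407 genes over 300 kb 0.29. *Car10* lay above the median of its class by 0.27, and 24 of the 407 genes had a larger log2 fold change. In that class 100 genes were called increased, which is 24.6%. *Car8*, which at 95.7 kb is near the upper edge of its class, lay above the class median by 0.22. *Car11* and *Car2* were below theirs by 0.10 and 0.17, and *Car7* was above by 0.13 and *Car12* by 0.075. When an offset for span was fitted in each library, the log2 fold change of *Car10* was 0.26 (SE 0.0542) and it was not called. That of *Car8* was 0.14 (SE 0.102) with this offset. Of all 9959 genes 2, or 0.0201%, were called in that fit.

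**Figure D4:**
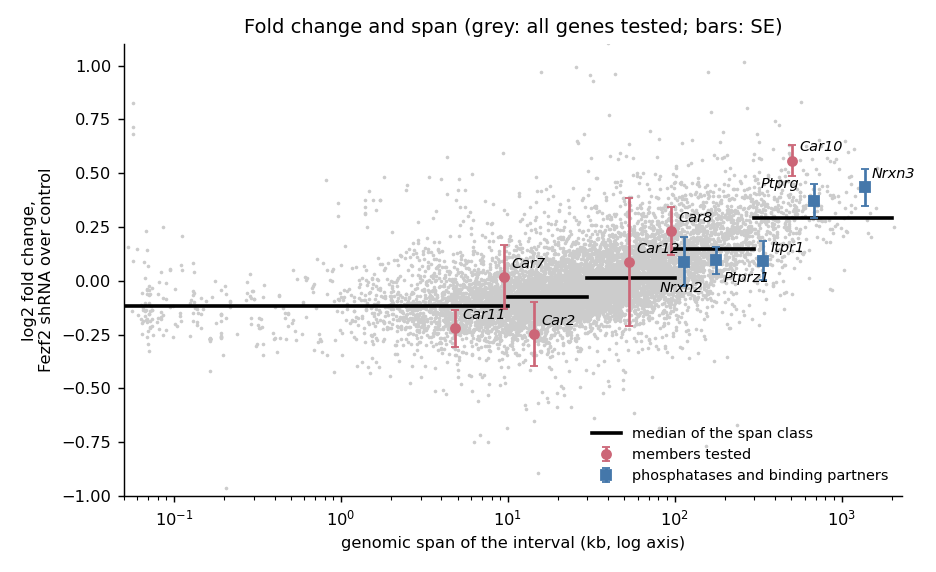
Log2 fold change (*Fezf2 shRNA* over control) against genomic span (kb, log axis) for the genes tested (grey), with SE bars for the 6 members tested (circles) and the phosphatases and binding partners (squares), and black lines for the median of each span class; 17 genes lie beyond the axes. The medians climb from -0.12 to 0.29 with span, *Car10* lies above the line of its class, and *Car11* and *Car2* below theirs.

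Several transcripts of *Car10* are annotated over different parts of the gene, and the counts of their intervals, and the differences between nested intervals, show where along the gene the reads lay. These stretches share reads where they overlap, and the differences between intervals were formed after the gene's values were seen. The whole interval is 1.25% exonic. The first 270.6 kb had 6612 ± 733 normalized counts in the controls and 10044 ± 819 after *Fezf2 shRNA* (SD, n = 4), a difference of 0.61 in mean log2 count. The next 122.9 kb went from 2174 ± 308 to 3635 ± 91.4, a difference of 0.75. The last 109.8 kb went from 4420 ± 223 to 5772 ± 309, a difference of 0.38. Of the 15 stretches 12 were at most 5% exonic; in each of these 12, which overlap each other, the treatments were separate, and the differences lay between 0.38 and 0.75.

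The exonic ends of *Car10* differed less. A transcript interval of 1.84 kb at the 5′ end, 53.2% exonic, had 750 ± 50.5 normalized counts in the controls and 883 ± 11.7 after *Fezf2 shRNA*, a difference of 0.24 with no overlap. The last 472 bp, at chr11:93601274-93601745, lie wholly in the 3′ untranslated part of the last exon. They had 307, 278, 299 and 329 normalized counts in the controls and 265, 323, 263 and 225 after *Fezf2 shRNA*. These 472 bp did not follow the gene: 3 of 4 *Fezf2 shRNA* libraries lay below all controls and the fourth within their range, and the difference was -0.18 (SE 0.118). The stretch took 2.31 ± 0.334% of the reads of *Car10* in the controls and 1.39 ± 0.265% after *Fezf2 shRNA*. It holds between 220 and 338 raw reads per library, against 12502 to 20086 for the whole gene. Along *Car10* the difference therefore lay in stretches that are nearly all intron. It was smaller or of the opposite sign in the stretches over 50% exonic, which lie only at the ends of the gene. A stretch of 886 bp at the 5′ end, 36.0% exonic, shares reads with the 1.84 kb interval. Its difference was 0.14 and its treatments overlapped. No internal exon was measured apart from intron, so these values do not give the change in spliced *Car10* RNA. In the other 6 members none of the 22 intervals and stretches with a mean of at least 100 counts separated the treatments.

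**Figure D5:**
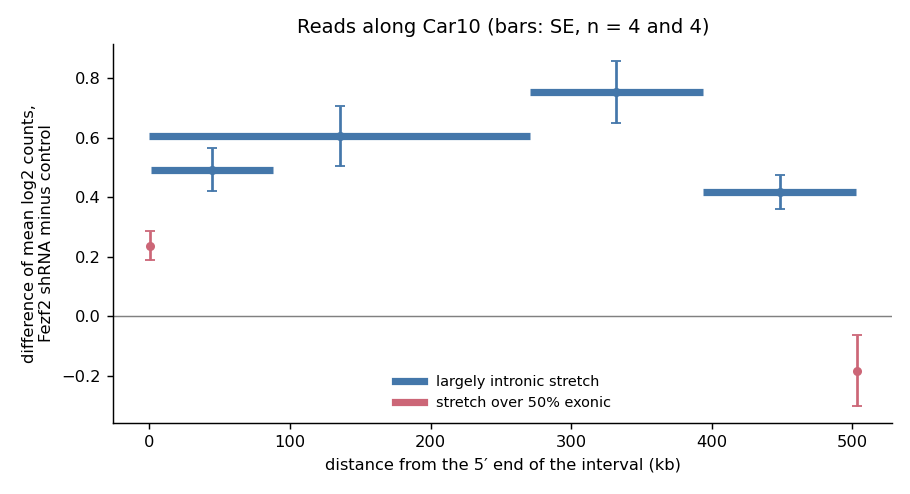
Difference of mean log2 counts (*Fezf2 shRNA* minus control) along *Car10*, by distance from the 5′ end of the gene's interval in kb; horizontal bars give the extent of each stretch, points its middle and vertical bars the SE (n = 4 and 4). The 4 largely intronic stretches drawn, the last without the exonic 3′ end, lie between 0.42 and 0.75, the 5′ end at 0.24 and the exonic 3′ end at -0.18.

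The genes with the pattern most like that of *Car10* over the 8 libraries, by the root mean square difference of gene-centred log2 CPM among 9958 genes, were *Slc9a9* (0.0517), *Dlgap2* (0.0555) and *Grm7* (0.0586). The median over all genes was 0.330. These 3 genes are also long, with spans of 561, 667 and 920 kb, and their log2 fold changes were 0.56, 0.57 and 0.57. For *Car2* the most like genes were *Sfi1* (0.0605), *Mettl5* (0.102) and *Myh14* (0.104), with log2 fold changes of -0.19, -0.25 and -0.20. The median over all genes was there 0.284. Likeness took in the difference between treatments, so log2 fold changes near those of *Car10* and *Car2* follow from the choice. Genes called increased were also most frequent over 300 kb (24.6%).

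The partners of the related proteins were tested as genes outside the choice of members. Among the neurexins, presynaptic receptors bound by *Car10* and *Car11*, *Nrxn3* was called increased, with 54065 ± 5789 normalized counts in the controls and 73060 ± 3959 after *Fezf2 shRNA* (log2 fold change 0.43, SE 0.0857, adjusted p = 0.031 in edgeR). *Nrxn2* had 0.089 (SE 0.112, adjusted p = 0.683 in edgeR). *Itpr1*, the calcium channel bound by *Car8*, had 0.094 (SE 0.0889, adjusted p = 0.572 in edgeR). *Nrxn3* spans 1380 kb, and with the span offset its log2 fold change was 0.035.

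A pair of receptor phosphatases, *Ptprg* of neurons and *Ptprz1* of glia, carry a carbonic anhydrase-like domain outside the cell. *Ptprg* had 8544, 10059, 9253 and 7956 normalized counts in the controls and 11442, 11521, 12479 and 10916 after *Fezf2 shRNA*. Every *Fezf2 shRNA* library was above every control, and the gene was called increased (log2 fold change 0.37, SE 0.0785, adjusted p = 0.039 in edgeR). *Ptprz1* had 0.096 (SE 0.0634, adjusted p = 0.414 in edgeR), and its treatments overlapped. *Ptprg* spans 689 kb. Of the 407 genes tested over 300 kb, 204 were likewise higher in every *Fezf2 shRNA* library than in every control, and 112 had a larger log2 fold change. With the span offset the value of *Ptprg* was 0.044. When single libraries were left out, *Ptprg* was called in 1 of 8 fits, the one without control replicate 2, and *Nrxn3* in 2 of 8.

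The other 9 carbonic anhydrase genes did not reach the filter and were not tested. *Car14*, a membrane enzyme, had 225 ± 50.5 normalized counts in the controls and 191 ± 30.9 after *Fezf2 shRNA*. *Car5b*, a mitochondrial enzyme, had 201 ± 27.3 and 214 ± 54.3, and *Car15*, another membrane-anchored enzyme, 150 ± 26.6 and 136 ± 20.7. All 3 were near the lower counts of *Car4*, and their treatments overlapped. *Car13*, a cytosolic enzyme, and *Car5a*, the second mitochondrial one, had means of 13.6 to 26.4. *Car1*, *Car3*, *Car6* and *Car9* had 0 to 11 raw reads in each library, where a count of 0 allows up to 3 and no difference of usual size was detectable.

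Transporters that move bicarbonate, lactate or chloride across the membrane work beside carbonic anhydrases. Of 10 Slc4 bicarbonate transporters 5 passed the filter and 0 were called in edgeR or in DESeq2, with 1 at an unadjusted p under 0.05, beside 19.7% of all genes tested. That gene was *Slc4a2*, an anion exchanger, at -0.24 (SE 0.0964, adjusted p = 0.206 in edgeR). *Slc4a10*, a sodium-driven transporter of neurons and the highest of the 5 in counts, had 0.072 (SE 0.0563), and *Slc4a3*, *Slc4a7* and *Slc4a8* lay between -0.095 and 0.081. *Slc4a4*, an astrocyte transporter, was represented by a short interval of 14.3 kb and was under the filter. *Slc4a11* had 47.2 and 48.4 normalized counts, and *Slc4a1*, *Slc4a5* and *Slc4a9* had at most 13 raw reads in a library.

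Of 5 lactate and chloride carriers 4 passed the filter and 0 were called in edgeR, with 2 at an unadjusted p under 0.05 (19.7% of all genes tested) and 1 called in DESeq2. The 2 were the lactate carriers *Slc16a1*, at -0.22 (SE 0.0883, adjusted p = 0.206 in edgeR), and *Slc16a7*, at 0.33 (SE 0.094, adjusted p = 0.094 in edgeR), which DESeq2 called increased. *Slc12a5*, which extrudes chloride from mature neurons, had 0.023 (SE 0.0608), and *Slc12a2*, which imports it, had -0.060 (SE 0.0874). The third lactate carrier, *Slc16a3*, was under the filter.

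Markers of the remaining cell types are given here once. Markers of oligodendrocyte precursors had a median log2 fold change of -0.20 over 4 genes tested, astrocyte markers -0.075 over 7, projection neuron markers -0.033 over 7, interneuron markers -0.098 over 6 and striatal markers -0.018 over 3. Microglial markers had a median of 0.076 over 7 genes. Of these 34 genes 0 were called in edgeR, 7 had an unadjusted p under 0.05, which is near the 19.7% over all genes tested, and DESeq2 called 2. Their part in the values of the members was not tested.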

How the data were processed

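Raw counts per Ensembl transcript were deposited by the authors for 8 libraries of total RNA (Illumina TruSeq, paired-end). Per the methods and the submitters' processing notes, reads were trimmed, mapped to mm10 (GRCm38) with TopHat2 2.1.1 and counted over Ensembl annotations with BEDTools multiCov 2.26.0. The values show that counts take in all reads between the start and end of a transcript, introns included; the use of strand, and of reads aligned to several places, is not given in the sources used here. A second deposited table, with the authors' DESeq2 fold changes and p-values, was not used. The treatment of each library was taken from its title. Whether the replicates came from separate animals rests on the record's 4 animals of each treatment, with each library taken as 1 animal.

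Of 94647 transcripts, 91320 matched GENCODE M21 and gave 38031 genes, each represented by its lowest Ensembl number; the unmatched transcripts held 1.82% of the counts and were left out. Tests used edgeR 4.0.16 in R 4.3.3 (TMM, quasi-likelihood test, Benjamini-Hochberg adjustment over 9959 genes that passed 8 CPM in 4 or more libraries). Calls needed an adjusted p no higher than 0.05 together with a log2 fold change no smaller than 0.2 in size. Normalized counts were scaled to the mean effective library size. Counts summed over genes were 54684016 to 58003814 per library, and the spread between replicates limits most values. The interval of each gene was counted by itself, so these sums are not numbers of reads sequenced. Differences of stretches of genes used log2 counts with 1 added. Zinc-binding codons were found by translating the coding sequences, aligning the proteins to that of *Car2* with Biopython 1.88 and mapping the aligned positions back to codons. The edgeR steps were tested on simulated data. Alternatives were other normalizations, filters, transcripts, DESeq2 1.42.0, a span offset (loess, span 0.3), the replicate block and each library left out. The genes named are the 7 members, *Fezf2*, the related carbonic anhydrase, phosphatase, partner and carrier genes, the 3 genes most like *Car10* and *Car2*, and leading or called markers; *Ttr* was named after its values were seen. The members and lists were chosen with earlier results of these data known. Some genes under this rule, and the codons of 1 member, are not reported here; they stay in the counts and medians over lists.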

Additional observations from a re-analysis of the deposited data

Results flagged for a closer look

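In 66 groups of 4 libraries (33 genes in 2 treatments), 4 held a library whose gap to the nearest other exceeded Dixon's critical value for groups of this size. Chance alone gives about 1 in 20 such groups if they are independent. These groups are not, since the genes share libraries and some were chosen for their likeness to *Car10* or *Car2*. *Car2* was highest in *Fezf2 shRNA* replicate 4, with a normalized count of 4021, whereas the 3 others had 2721 to 2907. *Sfi1* was also highest there, with 1428 against 1009 to 1075. It was chosen as the gene most like *Car2* over these same libraries, so this is not a separate observation. *Itpr1* was highest in control replicate 2, with 48714 against 37811 to 38860. *Slc4a8* was lowest in *Fezf2 shRNA* replicate 1, with 3525 against 4723 to 4876.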

How the results depend on the processing

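The count of genes past the threshold, 218 as reported, was 111 with a filter of more than 1 CPM, 85 with no filter, 752 with DESeq2, 2 with the span offset, and 0 to 401 as single libraries were left out (0 without control replicate 1, 401 without control replicate 2). The count was 121, 9, 12, 7 and 17 without control replicate 3, control replicate 4 and *Fezf2 shRNA* replicates 1, 3 and 4. Among the members, 1 was past the threshold as reported, 0 with the span offset, and 0 to 1 as libraries were left out (0 without control replicate 1). The log2 fold change of *Car10* was 0.26 with the span offset and 0.52 to 0.61 as libraries were left out, and *Car10* was called in 7 of those 8 fits. The level per kb of *Car7* was 47.0 in the controls with its widest interval. No fit without a library could be had for *Car4*, which stayed under the filter.

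Of the listed genes outside the members, 2 were past the threshold as reported (*Ptprg* and *Nrxn3*), 0 with more than 1 CPM, 1 with no filter, 4 with DESeq2, 0 with the span offset and 0 to 4 as libraries were left out (4 without control replicate 2, 0 without control replicate 1, 3 or 4 or *Fezf2 shRNA* replicate 1, 3 or 4). With the span offset the sign turned for *Ptprz1* (-0.075), *Nrxn2* (-0.020), *Itpr1* (-0.15), *Slc4a7* (-0.073) and *Slc4a10* (-0.16). With library totals it turned for *Slc4a7* (-0.0077) and *Slc12a5* (-0.0049), without control replicate 2 for *Slc4a7* (-0.013 to 0.064 over single libraries left out), and without *Fezf2 shRNA* replicate 2 for *Slc12a2* (-0.12 to 0.0032) and *Slc12a5* (-0.0018 to 0.055). The cause was not tested.

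Deviations of same-numbered libraries from their treatment means had correlations of 0.307, 0.093, -0.133 and 0.167. The value of replicate 1 was the highest of all pairs, but not every library correlated best with its own number. These correlations cannot decide whether same-numbered libraries were handled together, and the titles give only a number. In *Car2* each *Fezf2 shRNA* library lay below the control of the same number. Its log2 fold change was -0.25 (SE 0.058) with the replicate block, against an SE of 0.149 without it, and it was not called in either fit. With the replicate block 89 genes, 1 member (*Car10*, 0.56) and 0 listed genes were past the threshold. With the block and the span offset together these counts were 2, 0 and 0, *Car10* had 0.26, and the sign turned for *Ptprz1* (-0.075), *Nrxn2* (-0.0077), *Itpr1* (-0.15), *Slc4a7* (-0.070) and *Slc4a10* (-0.16). Depth limits the 9 other carbonic anhydrase genes and *Car4*, which stayed below or near the filter.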
